A study of Homo sapiens with 6 samples.

Results

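The transcripts of the Hippo kinase cassette and its upstream scaffolds were followed in SW620, by its label the colorectal cancer line of that name. The set has 10 genes, chosen by symbol from textbook knowledge of the pathway: STK3, STK4, SAV1, LATS1, LATS2, MOB1A, MOB1B, NF2, WWC1 and WWC2. The choice was made with earlier results of these data known. All 10 were found among the 20729 gene symbols of the count table, and all 10 were among the 15506 genes with enough reads to test. RNA-seq was done on 3 libraries of cells given a control siRNA (siNC) and on 3 of cells given an siRNA against OSBPL3 (siOSBPL3), a gene for an oxysterol-binding-protein-related lipid transfer protein. No other treatment is named for either group, and the time and dose of the siRNA are not given in the sources used here. Nothing in the labels tells separate cultures from repeat preparations of 1 culture, so the p-values rest on a spread that could be technical.

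The Hippo pathway restrains the transcriptional coactivators YAP and TAZ. The MST kinases (encoded by STK4 and STK3), held by the scaffold SAV1, phosphorylate the LATS kinases and their MOB1 cofactors, and active LATS then phosphorylates YAP and TAZ, which keeps them out of the nucleus. Merlin (NF2) and the KIBRA family (WWC1, WWC2) bring the kinases together at the cell cortex. In intestinal epithelium the pathway is known for limiting YAP during growth and repair. The series names Hippo-YAP signalling in its title, and for that reason the transcript levels of its kinases were compared between the groups. Much of the regulation of these kinases is by phosphorylation, which RNA-seq does not measure.

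Libraries held 30040020 to 39701340 counts. OSBPL3 itself stood at 22.8%, 6.93% and 8.61% of the siNC mean in siOSBPL3 replicates 1, 2 and 3, so all 3 libraries went with their label, replicate 1 least. Its log2 fold change was -2.97, and 14.5% of all genes tested had a change at least as large. The groups differed across most of the table: 12437 of 15506 genes (80.2%) passed an adjusted p of 0.05 (edgeR quasi-likelihood test on group, Benjamini-Hochberg over all genes tested), and log2 levels correlated across genes at 0.989 to 0.990 within siNC, 0.981 to 0.986 within siOSBPL3 and 0.726 to 0.731 between groups. Epithelial markers of the label were present in both groups (EPCAM, CDH1, KRT8, KRT18 and KRT19 each at a mean over 206 CPM, counts per 1e6 TMM-scaled counts), while KRT20, CDX1, CEACAM5 and GPA33 were under 1 CPM in both. The intestinal transcription factor gene CDX2 stood at 1.15 CPM in siNC and 63.5 CPM in siOSBPL3, and VIL1, for a microvillus protein, at 482 and 62.6 CPM. LGALS4, another epithelial marker, stood at 0.40 and 9.08 CPM. The summed level of 7 measured mesenchymal markers was 758 to 772 CPM in siNC and 4.10 to 8.58 CPM in siOSBPL3. VIM made up 694 and 1.64 CPM of it on average. LUM stood at 60.3 CPM in siNC and 0 in siOSBPL3, while COL3A1 was close to absent in both (0 and 0.0091 CPM). A summed 5 leukocyte markers stood at 19.8 to 22.2 CPM and 8.31 to 11.2 CPM, with PTPRC at 0.083 and 0.11 CPM. CD68 made up most of that sum, at 19.0 and 5.87 CPM on average. LYZ was lower in siOSBPL3 (1.93 and 0.18 CPM), whereas CD14 was higher (0.28 and 3.06 CPM). The part of these differences in the results below was not tested, and with a single pair of groups an effect of losing OSBPL3 cannot be told apart from any other difference between the cells of the groups.

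Of the 10 genes, 3 were higher in siOSBPL3 (LATS2, NF2 and WWC1), 6 were lower (STK3, STK4, LATS1, MOB1A, MOB1B and WWC2) and SAV1 did not pass the test. That is 9 of 10 called, where 80.2% of all genes were called (40.4% higher and 39.8% lower). The levels of the groups did not overlap for 9 of the 10 genes, where 83.0% of all genes tested did not overlap. A change of at least 2-fold was called for 5 of them, 2 higher and 3 lower, against 48.9% of all genes (24.8% higher and 24.1% lower). The median absolute log2 fold change was 0.79 over the set and 1.00 over all genes tested, and the signed median was -0.34 against -0.00089. By these counts and medians the set is not set apart from the rest of the table, and the sections that follow concern its single genes and the balance between its paralogues.

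**Figure D1:**
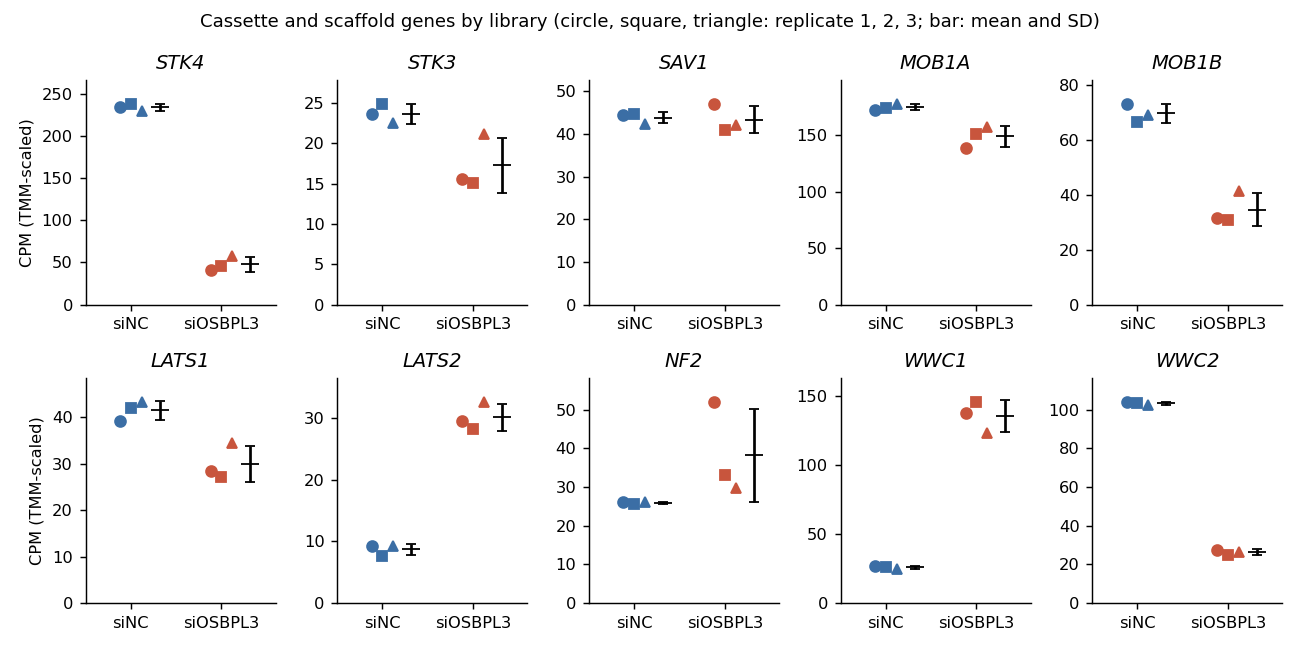
Level of each of the 10 genes in CPM (counts per 1e6 TMM-scaled counts, y axis from 0) in 3 siNC and 3 siOSBPL3 libraries, with the mean and SD of each group as a black bar. STK4 and WWC2 fall and WWC1 and LATS2 rise in all 3 siOSBPL3 libraries by more than the spread, SAV1 overlaps between groups, and NF2 is at 51.9 CPM in siOSBPL3 replicate 1 against 33.0 and 29.7 CPM in the other 2.

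STK4 (chromosome 20, 44966512 to 45080021, plus strand, GRCh38.p14), which encodes the kinase MST1, showed the largest fall of the set. Its level was 234.0, 238 and 229.6 CPM in siNC replicates 1 to 3 and 40.5, 45.4 and 57.4 CPM in siOSBPL3. The groups lay far apart, with means of 233.9 ± 4.304 and 47.8 ± 8.69 CPM (SD, n = 3 each), and siOSBPL3 replicate 3 was the highest of its group. The log2 fold change was -2.29 ± 0.12 (SE; adjusted p = 4.4e-09, edgeR quasi-likelihood test), a level 4.90-fold lower. Of all genes tested, 20.3% had a change at least as large.

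STK3 (chromosome 8, 98343975 to 98942610), which encodes the second MST kinase, was at a lower level than STK4 to begin with. It stood at 22.5 to 24.9 CPM in siNC and at 15.6, 15.01 and 21.2 CPM in siOSBPL3 replicates 1, 2 and 3. The groups were separate by a narrow margin, since siOSBPL3 replicate 3 came close to the siNC range. The log2 fold change was -0.45 ± 0.14 (adjusted p = 0.0089), which turned to 0.37 (adjusted p = 0.0098) with a correction for the GC content and length of the transcript. SAV1 (chromosome 14, 50633580 to 50668306, minus strand), the WW-domain scaffold that activates the MST kinases, was at 42.4 to 44.6 CPM in siNC and 40.9 to 47.0 CPM in siOSBPL3. The groups overlapped, and the log2 fold change of -0.01 ± 0.09 did not pass (adjusted p = 0.88), while the corrected value was 0.28 (adjusted p = 0.013). SAV1 shares 840 bases of exon with ATL1 on the other strand, a gene that held 1397 counts over all 6 libraries. The strand setting and options of the counting are not given, so how reads over those bases were counted is not known.

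LATS2 (chromosome 13, 20973036 to 21061586, minus strand), one of the LATS kinases that phosphorylate YAP and itself a known target gene of YAP, was among the rises. It stood at 9.22, 7.68 and 9.24 CPM in siNC and at 29.5, 28.2 and 32.6 CPM in siOSBPL3 replicates 1 to 3. The lowest siOSBPL3 library was well above the highest siNC library, and the log2 fold change was 1.79 ± 0.12 (adjusted p = 4.0e-08), a 3.46-fold rise. LATS1 (chromosome 6, 149658153 to 149718101, minus strand), its paralogue, went from 39.2 to 43.3 CPM in siNC to 27.0 to 34.4 CPM in siOSBPL3. The log2 fold change was -0.47 ± 0.11 (adjusted p = 0.0016), but 0.37 (adjusted p = 0.0033) with the GC content and length correction, so the direction of LATS1 depended on that choice. An antisense gene in GENCODE covers 408 bases of its exons, and 1 covers 106 bases of those of STK3.

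The MOB1 proteins are cofactors that bind LATS kinases and raise their activity. MOB1A (chromosome 2, 74152528 to 74178879, minus strand) was at 173 to 178 CPM in siNC and 139 to 157 CPM in siOSBPL3, a small fall of 0.23 ± 0.08 on the log2 scale (adjusted p = 0.020). That call was lost without siNC replicate 2 (adjusted p = 0.053) or siNC replicate 3 (0.062), and the direction turned with the correction (log2 fold change 0.58, adjusted p = 1.1e-05). MOB1B (chromosome 4, 70901851 to 70988168, plus strand) stood at 73.0, 66.4 and 69.1 CPM in siNC and at 31.5, 30.6 and 41.3 CPM in siOSBPL3. The groups were apart, with a log2 fold change of -1.01 ± 0.11 (adjusted p = 4.9e-06), but the corrected value was 0.13 and no longer passed (adjusted p = 0.16). MOB1B shares 199 bases of exon with its neighbour DCK on the same strand.

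Among the scaffolds, WWC1 and WWC2 moved in opposite directions. WWC1 (chromosome 5, 168291645 to 168472303, plus strand), which encodes KIBRA, rose from 26.7, 26.2 and 24.6 CPM in siNC to 138, 146 and 123 CPM in siOSBPL3. This was the largest rise of the set, 5.24-fold, with a log2 fold change of 2.39 ± 0.09 (adjusted p = 3.3e-10). WWC2 (chromosome 4, 183099257 to 183320777, plus strand), its paralogue, fell from 104.0, 103.6 and 102.4 CPM to 27.6, 24.7 and 26.4 CPM. The spread within each group was small beside this fall, and the log2 fold change was -1.98 ± 0.08 (adjusted p = 5.7e-10), or -1.26 with the correction. WWC2 shares 2581 bases of exon with CLDN22 on the other strand, a gene that held 6 counts over all 6 libraries.

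NF2 (chromosome 22, 29603556 to 29698600, plus strand), which encodes merlin, the membrane-linked tumour suppressor that recruits LATS, was at 26.06, 25.52 and 26.03 CPM in siNC. In siOSBPL3 it stood at 51.9 CPM in replicate 1 and at 33.0 and 29.7 CPM in replicates 2 and 3. All 3 were above siNC, but replicate 1, the library with the most OSBPL3 left, carried much of the difference. The log2 fold change was 0.56 ± 0.17 (adjusted p = 0.0099), and 0.28 (adjusted p = 0.011) without siOSBPL3 replicate 1. With the GC content and length correction it was 0.33 and no longer passed (adjusted p = 0.11).

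**Figure D2:**
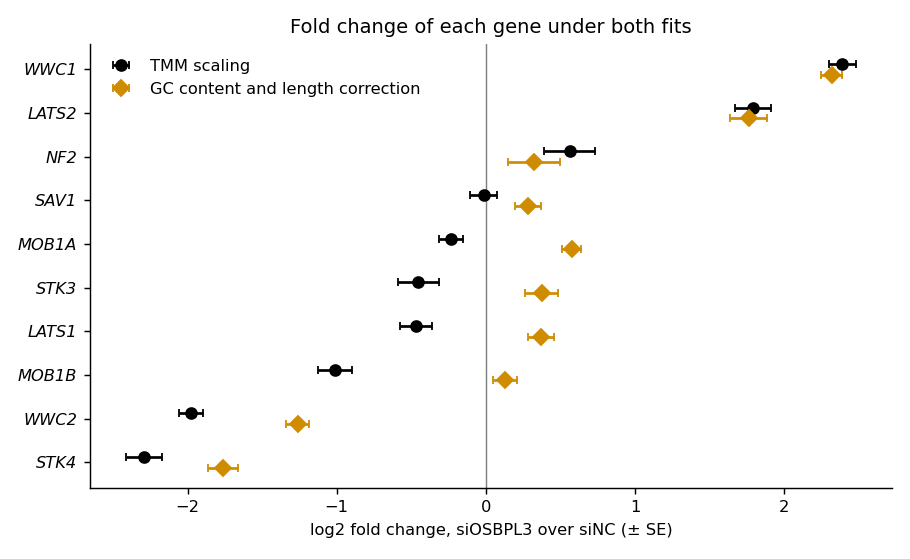
Log2 fold change of each of the 10 genes, siOSBPL3 over siNC, with its SE, as scaled by TMM (black circles) and with a per-library correction for transcript GC content and length (orange diamonds). WWC1 and LATS2 stay near 2.4 and 1.8 and STK4 and WWC2 stay below -1.2. In contrast, STK3, LATS1, MOB1A and MOB1B move from below 0 to above 0, as does SAV1 from -0.01 to 0.28.

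How the 10 genes split by direction went with the base composition of their transcripts. The 7 genes whose transcript had a GC content under 45% (STK3, STK4, SAV1, LATS1, MOB1A, MOB1B and WWC2) held all 6 falls, and the 3 genes over 50% (LATS2, NF2 and WWC1) held all 3 rises. The same trend ran through the table: of 4908 genes under 45%, 22.4% were higher and 59.6% lower, and of 6531 genes over 50%, 58.8% were higher and 23.2% lower. Those bounds were chosen after the values were seen. Across 13818 genes, which are not independent replicates, Spearman's rho between GC content and log2 fold change was 0.38. Inside the groups, rho between GC content and the log2 difference of 1 library from the other 2 was -0.16, 0.0056 and 0.16 for siNC replicates 1 to 3 and 0.19, 0.22 and -0.42 for siOSBPL3 replicates 1 to 3. With the correction, 4 of the 10 genes were called in the same direction as before (WWC1, LATS2, STK4 and WWC2), 3 were called in the opposite direction (STK3, LATS1 and MOB1A), and 6 were higher and 2 lower in all. Of all genes in the corrected fit 78.2% were called, 41.1% higher and 37.1% lower. Over these 13818 genes, 63.4% were called in the same direction in both fits and 4.63% in opposite directions.

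Set beside genes of like GC content, the same 4 lay outside the middle 50% of their class. By construction 50% of the genes of a class lie outside it. The classes use the same GC values as the correction, so this is not separate evidence. STK4, at 43.4% GC, had a log2 fold change of -2.29 where the middle 50% of 1140 such genes ran from -1.14 to 0.34, and WWC2, at 43.1%, was at -1.98 against the same range. WWC1, at 54.4%, was at 2.39 where the middle 50% of 831 genes ran from -0.32 to 1.33. LATS2, at 51.8%, was at 1.79 against a range from -0.77 to 0.95. The other 6 genes lay inside the range of their own class, MOB1B for example at -1.01 between -1.44 and -0.16.

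**Figure D3:**
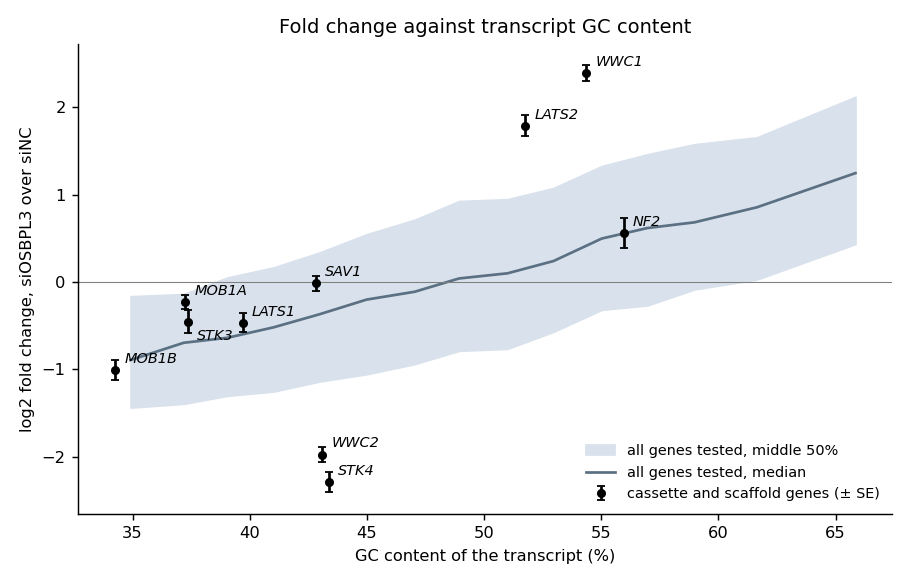
Log2 fold change, siOSBPL3 over siNC (y axis), against the GC content of the transcript in percent (x axis). The median (line) and the middle 50% (band) of GC classes are drawn for the 13818 tested genes with a known GC content. The 10 genes are points with their SE. WWC1 and LATS2 lie above the band, STK4 and WWC2 below it, and the other 6 genes inside it.

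The promoters of the 4 genes that were called in the same direction under both fits are shown because they include the paralogues with opposite changes, WWC1 and WWC2. Each line gives the 250 bases before the RefSeq start of the gene on its own strand (GRCh38.p14), 5′ to 3′, at chr5:168291395-168291644 (WWC1, plus), chr4:183099007-183099256 (WWC2, plus), chr13:21061587-21061836 (LATS2, minus) and chr20:44966262-44966511 (STK4, plus). Capitals mark GGAATG or its reverse complement CATTCC, the core letters recognised by the TEAD factors through which YAP acts.
WWC1: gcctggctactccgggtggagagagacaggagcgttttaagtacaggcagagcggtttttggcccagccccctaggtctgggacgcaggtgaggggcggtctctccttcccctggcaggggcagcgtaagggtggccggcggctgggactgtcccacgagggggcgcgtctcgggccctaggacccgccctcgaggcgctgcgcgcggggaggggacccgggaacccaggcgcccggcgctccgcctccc
WWC2: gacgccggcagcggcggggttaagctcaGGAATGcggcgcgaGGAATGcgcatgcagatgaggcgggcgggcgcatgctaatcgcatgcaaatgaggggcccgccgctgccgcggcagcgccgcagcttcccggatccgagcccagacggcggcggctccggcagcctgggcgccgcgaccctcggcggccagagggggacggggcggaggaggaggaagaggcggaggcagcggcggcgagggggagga
LATS2: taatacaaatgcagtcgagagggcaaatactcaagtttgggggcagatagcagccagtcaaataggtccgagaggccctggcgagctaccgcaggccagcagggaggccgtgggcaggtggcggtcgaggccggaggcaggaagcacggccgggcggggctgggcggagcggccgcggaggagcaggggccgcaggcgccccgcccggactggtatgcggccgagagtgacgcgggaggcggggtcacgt
STK4: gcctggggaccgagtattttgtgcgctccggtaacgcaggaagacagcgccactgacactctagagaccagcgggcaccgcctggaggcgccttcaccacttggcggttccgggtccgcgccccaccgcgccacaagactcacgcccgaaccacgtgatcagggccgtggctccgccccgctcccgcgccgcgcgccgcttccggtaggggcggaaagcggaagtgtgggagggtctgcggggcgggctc

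The core letters occurred 2 times in the window of WWC2, at 222 and 208 bases before the start, and were not found in the windows of WWC1, LATS2 and STK4. An entry was matched for 9 of the 10 genes, all but STK3, and WWC2 was the only one of them with a match, against 11.9% of 27305 RefSeq promoter windows. The table's start is not the outer end of the gene for every entry: the windows of LATS1 and MOB1B lie wholly inside the RefSeq gene and that of NF2 lies in it over 77 bases, while the other 6, with the 4 printed, lie outside. All 4 windows printed are rich in GC, from 69.6% in LATS2 to 74.8% in WWC2, where the median window had 58.0%. They hold 23 CG pairs in WWC1, 35 in WWC2, 25 in LATS2 and 31 in STK4, where the median window had 11. A match to letters is a description and says nothing of binding.

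Since 4 of the proteins of the cassette come as paralogue pairs, the balance within each pair was compared library by library, a ratio that the scaling between libraries cannot change. In all 4 pairs the ratio of every siOSBPL3 library lay outside the siNC range, where 83.0% of single genes did not overlap between groups, and the share among ratios of other gene pairs was not computed. WWC2 had 2.00 ± 0.05 (log2 ratio of counts, WWC2 over WWC1, SD, n = 3) in siNC and -2.37 ± 0.17 in siOSBPL3, a difference of -4.37 ± 0.10 (SE). For STK4 over STK3 the log2 ratio went from 3.31 ± 0.05 to 1.47 ± 0.11, a difference of -1.84 ± 0.07. STK4 thus lost ground to STK3, and in the LATS pair it was the rarer partner that gained. For LATS2 over LATS1 it went from -2.25 ± 0.18 to 0.01 ± 0.08, a difference of 2.27 ± 0.12. For MOB1B over MOB1A it went from -1.33 ± 0.08 to -2.12 ± 0.19, a difference of -0.79 ± 0.12. Each pair gave p = 0.1 by the two-sided exact permutation test over the 6 libraries (0.1 after Benjamini-Hochberg adjustment over the 4 pairs), the smallest that 3 against 3 libraries allow, so none can pass 0.05. Corrected for GC content and length, the differences were -3.59 for WWC2 over WWC1, -2.14 for STK4 over STK3, 1.39 for LATS2 over LATS1 and -0.45 for MOB1B over MOB1A, with no change of direction. No stretch of 100 bases is shared within any of the 4 pairs among their GENCODE transcripts. That search covered identical stretches only, so it does not show how the reads were assigned within a pair.

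Per length of transcript these ratios become shares of each pair. STK4 made up 89.3%, 88.9% and 89.6% of the MST pair in siNC and 68.6%, 71.8% and 69.5% in siOSBPL3, so its libraries did not overlap between groups and it was the main MST transcript in each. In the LATS pair the lead passed from LATS1 to LATS2, in counts not corrected for GC content. With the GC content and length correction the difference in log2 ratio was 1.39 against 2.27. Corrected shares were not computed, so whether the lead passes with the correction is not known. LATS2 made up 24.3%, 19.98% and 22.6% of the LATS pair in siNC and 58.6%, 58.7% and 56.3% in siOSBPL3. MOB1B made up 21.1% to 22.9% of the MOB1 pair in siNC and 12.5% to 15.6% in siOSBPL3. WWC2 made up 75.9%, 76.2% and 77.1% of its pair in siNC and 13.9%, 12.1% and 14.7% in siOSBPL3, so WWC1 was the minor partner in siNC and the main one in siOSBPL3. These shares take 1 transcript per gene. With the median length of all its GENCODE transcripts the WWC2 share was 38.3% in siNC and 2.94% in siOSBPL3, and that of STK4 77.5% and 49.2%. Which partner leads thus depends on the length used. The direction of each change cannot, because the length of a gene is the same in every library.

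**Figure D4:**
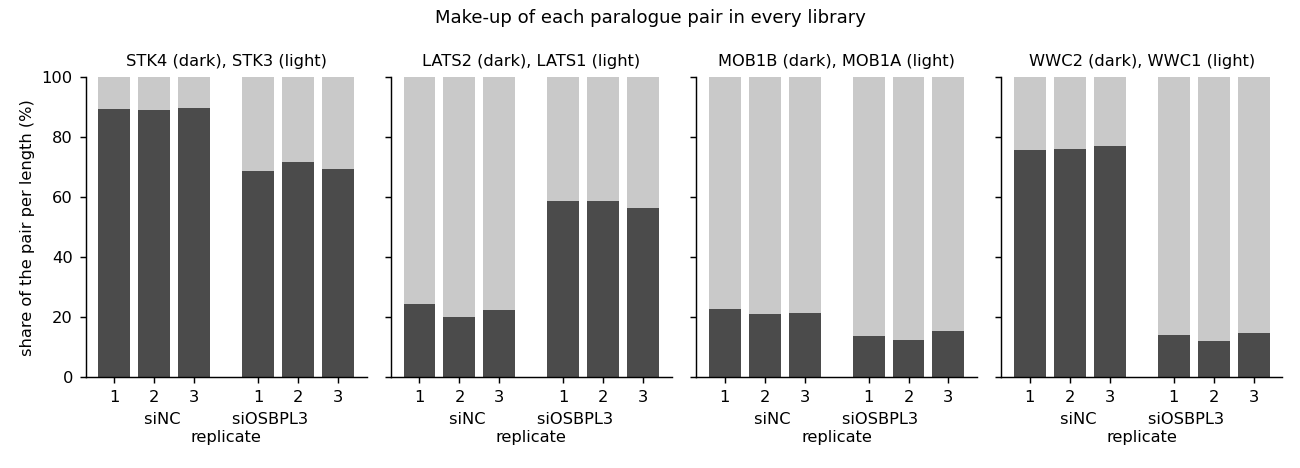
Share of each paralogue in its pair, in percent of the summed counts per length of transcript, for every siNC and siOSBPL3 library (dark, the first gene named; light, the second). WWC2 goes from about 76% to about 14% of its pair and LATS2 from about 22% to about 58%, with little spread between the 3 libraries of a group.

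The summed level of each pair shows how much transcript for that step there was in all. In CPM per kilobase of transcript, STK4 and STK3 together stood at 41.3 ± 0.91 (SD, n = 3) in siNC and 10.8 ± 1.97 in siOSBPL3, 3.84-fold lower. The MOB1 pair stood at 45.8 ± 0.54 and 35.4 ± 2.62, the LATS pair at 7.10 ± 0.29 and 9.45 ± 0.93, and the WWC pair at 15.3 ± 0.25 and 22.0 ± 1.52, 1.43-fold higher. These sums depend on the length used. With the median length of all transcripts of a gene the MST pair went from 163 ± 4.21 to 52.6 ± 9.77, 3.10-fold lower, and the WWC pair from 61.9 ± 1.82 to 206 ± 16.5, 3.33-fold higher. The MOB1 pair then went from 292 to 226 and the LATS pair from 15.5 to 19.1, so the direction was the same for all 4 pairs with either length. The sums were not corrected for GC content. With the GC content and length correction, MOB1A and MOB1B stood at 0.58 and 0.13 on the log2 scale. The fall of the MOB1 pair thus depended on leaving that correction out. In bulk RNA, fewer cells that carry a transcript and less transcript per cell cannot be told apart.

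The order of levels within the set, with the transcript of the longest coding sequence, was also different. In siNC, STK4 (36.9 ± 0.68 CPM per kilobase, n = 3) and MOB1A (35.8 ± 0.54) were highest with libraries that overlapped each other. SAV1 (14.3), WWC2 (11.7), MOB1B (9.98) and LATS1 (5.52) followed in separate steps, STK3 (4.44) and NF2 (4.29) overlapped, and WWC1 (3.62) and LATS2 (1.58) were lowest. In siOSBPL3, MOB1A (30.5 ± 1.95), WWC1 (19.0 ± 1.58) and SAV1 (14.2 ± 1.06) led in separate steps. From there each gene overlapped the next, through STK4 (7.53), NF2 (6.34), LATS2 (5.46), MOB1B (4.95), LATS1 (3.99) and STK3 (3.24) to WWC2 (2.97). LATS2 and LATS1, which feed the same step, thus went from a clear order in siNC to the reverse order of means in siOSBPL3 (5.12 to 5.91 against 3.598 to 4.58 CPM per kilobase). The order is tied to the length chosen. With median lengths, siNC read MOB1A (229), STK4 (126), MOB1B (62.8), SAV1 (54.3), WWC1 (38.2), STK3 (36.6) and WWC2 (23.7 CPM per kilobase), with NF2, LATS1 and LATS2 below. In siOSBPL3 the means of WWC1 (200.2) and STK3 (26.7) then lay above those of MOB1A (195) and STK4 (25.8). The reversal of LATS1 (12.6 to 9.12) and LATS2 (2.90 to 10.03) was seen with both lengths, in levels not corrected for GC content.

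The genes whose pattern over the 6 libraries was most like that of WWC1, by distance of centred log2(CPM + 1) values among 11205 other genes, were RRAS (distance 0.14), TMEM184A (0.14) and LMAN2 (0.18), with log2 fold changes of 2.40, 2.57 and 2.36. Those most like STK4 were PLS3 (distance 0.088), LINC00630 (0.10) and STARD4 (0.11), at -2.31, -2.58 and -2.32.

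The rest of the pathway was read from a list of 73 other genes in 8 roles, of which 67 could be tested. Of these 29 were higher, 29 lower and 9 did not pass, so 58 of 67 were called where 80.2% of all genes were. Their median log2 fold change was -0.07, and the median absolute value 0.91 against 1.00 over all genes.

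Of 12 tested genes of STRIPAK, the phosphatase complex that switches the MST kinases off, 5 were higher and 7 lower. FGFR1OP2, a STRIPAK subunit, fell by 2.42 ± 0.11 on the log2 scale, from 130 to 24.3 CPM. The striatin gene STRN (-1.17 ± 0.08) and SLMAP (-1.15 ± 0.08), which links STRIPAK to MST kinases, also fell, but stood at -0.17 and -0.32 with the GC content and length correction. The corrected counts were 4 higher and 5 lower. MOB4, another subunit, was listed at 0 in every library, and its exons share 698 bases with the read-through gene HSPE1-MOB4 in GENCODE.

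Of 11 cortical and polarity genes tested, 6 were higher and 3 lower. FAT1, an atypical cadherin, rose from 218 to 968 CPM (log2 fold change 2.15 ± 0.11, and 2.95 corrected). The polarity genes SCRIB (1.31 ± 0.09) and LLGL1 (1.53 ± 0.13) rose too, SCRIB to only 0.43 when corrected. With the correction 6 were higher and the 4 others that could be corrected did not pass, PATJ and FRMD6, for example, standing at 0.08 and 0.06.

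Of 11 kinases that act beside the MST kinases or belong to the NDR family of LATS, 4 were higher and 6 lower. STK38L, which encodes the NDR2 kinase, fell from 733 ± 5.94 to 29.9 ± 3.47 CPM (SD, n = 3 each), a log2 fold change of -4.61 ± 0.11, while its paralogue STK38 rose from 53.1 to 82.7 CPM (0.64 ± 0.08). TNIK, a kinase of the MAP4K group, fell from 160 to 2.92 CPM (-5.78 ± 0.18), and MAP4K5 fell by 1.34 ± 0.09, or -0.41 corrected.

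Of the 4 other MOB genes, which encode relatives of the LATS cofactors, 3 were higher and MOB2 did not pass (-0.07 ± 0.10, adjusted p = 0.50, and -0.90 corrected, where it was called lower). MOB3A rose by 1.74 ± 0.10 (1.14 corrected) and MOB3C by 1.67 ± 0.19. MOB3B had 1 count in the siNC group and 627 in the siOSBPL3 group, which is 535 times as many per scaled count (exact 95% counting interval 95.6 to 21149, covering counting error only). The 6 RASSF genes, whose products share the SARAH domain of the MST kinases, gave 2 higher and 4 lower. RASSF6 fell from 116 to 5.65 CPM (-4.36 ± 0.10), and RASSF3 (0.94 ± 0.11) and RASSF5 (1.15 ± 0.14) rose.

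Of 5 tested genes for LIM proteins that hold LATS in check and for angiomotins, which bind YAP, 4 were higher and 1 lower. AMOTL2, also a known YAP target, rose from 6.07 to 77.9 CPM (3.68 ± 0.16), AJUBA rose by 0.98 ± 0.10 and AMOT fell by 1.75 ± 0.14. Of 11 genes for the anchoring and degradation of YAP, 3 were higher, 3 lower and 5 did not pass. The corrected counts were 5 higher, 2 lower and 4 that did not pass. The 14-3-3 genes SFN (1.90 ± 0.09, and 0.84 corrected) and YWHAH (1.38 ± 0.11) rose. CSNK1E went from 154 counts in siNC to 1 in siOSBPL3, 181 times fewer per scaled count (interval 31.9 to 7180), but its exons share 1316 bases with the read-through gene TPTEP2-CSNK1E, so its level is uncertain. Of 7 transcriptional effectors 2 were higher and 5 lower, the same counts with the correction, with TEAD1 (-1.89 ± 0.08, -1.09 corrected) and VGLL4 (-1.02 ± 0.09) lower and TEAD2 (1.64 ± 0.10, 0.95 corrected) higher.

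**Figure D5:**
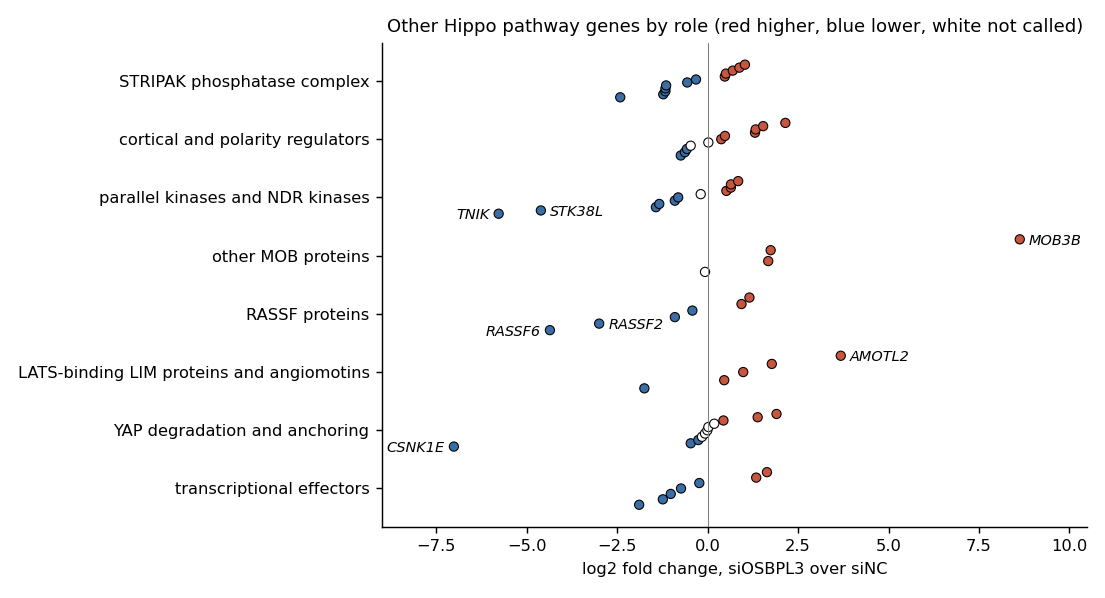
Log2 fold change, siOSBPL3 over siNC (x axis), of 67 other Hippo pathway genes grouped by role (rows), with genes called higher in red, lower in blue and not called in white. Genes beyond 3 in size are named, from CSNK1E at -7.02 to MOB3B at 8.63, and every role but the other MOB genes holds calls in both directions.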

How the data were processed

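The authors deposited raw counts of reads for each gene symbol in 6 libraries, not normalized. Per the submitters' processing notes, HISAT2 2.2.1, HTSeq 0.13.5 and the GRCh38 build were used. Annotation, strand setting and counting options are not given in the sources used here. Groups and replicate numbers came from sample titles, and columns were matched by library name. The members and lists were chosen with earlier results of these data known.

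The count test was that of edgeR 4.0.16 (R 4.3.3): filterByExpr (minimum count 10, total 15), TMM, robust quasi-likelihood fit on group, two-sided, Benjamini-Hochberg adjustment over all 15506 genes, threshold 0.05. The SE is the log2 fold change over the root of F. CPM are counts per 1e6 TMM-scaled counts. Alternatives were DESeq2 1.42.0, limma-voom (limma 3.58.1), other scalings and filters, a replicate block, each library left out, and a per-library smooth (mgcv 1.9.3) for transcript GC content and length (GENCODE 29, 89.1% of tested genes). Levels per kilobase use the transcript with the longest coding sequence. Exact permutation tests used scipy 1.17.1. Positions and promoters came from RefSeq. Named genes were all 10 members, OSBPL3, up to 3 called genes of each list with the smallest adjusted p, and the 3 genes most like WWC1 and STK4. Others named were chosen after their values were seen. Within a group, every 2 libraries differed by more than sampling noise (at least 2.97 in chi-square over its degrees of freedom). The values were 2.97 to 3.59 within siNC and 19.9 to 53.4 within siOSBPL3, so the siOSBPL3 libraries were the less alike.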

Additional observations from a re-analysis of the deposited data

How the results depend on the processing

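The correction for GC content and transcript length changed the calls of 6 of the 10 genes. With it 6 of the 10 genes were higher and 2 lower, STK3 stood at 0.37, LATS1 at 0.37, MOB1A at 0.58, MOB1B at 0.13 and SAV1 at 0.28 on the log2 scale, in each case against the sign without it, and NF2 at 0.33 was not called (adjusted p = 0.11). SAV1, near 0, also changed sign with library totals (0.030). Leaving out 1 library at a time gave SAV1 values from -0.071 to 0.031 and MOB1A values from -0.27 to -0.18, the latter not called without siNC replicate 2 or 3. The median transcript length moved all 20 group levels per kilobase (WWC1 in siNC from 3.62 to 38.2), the 8 pair sums and 6 of the 8 pair shares by more than the SD. With it the share of STK4 was 77.5% in siNC and 49.2% in siOSBPL3, of LATS2 18.7% and 52.4% and of WWC2 38.3% and 2.94%. WWC1, WWC2, STK4, LATS2 and OSBPL3 kept their direction and their call under every alternative run, with adjusted p up to 0.024 (OSBPL3, replicate block).

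Replicate numbers did not pair the libraries (correlation of deviations from the group mean -0.0081 to -0.0032 for equal numbers, -0.020 to 0.026 for others). With the replicate block 6133 genes were higher and 6144 lower over the table, and 3 and 6 of the 10 genes, as without it. For the paralogue ratios the block leaves the difference unchanged by construction (-1.84 for STK4 over STK3). Each of the 4 ratios gave p = 0.25 in the exact sign-flip permutation test, the smallest that 3 pairs of libraries allow.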
